A study of Homo sapiens with 6 samples.

Results

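The genes described here are 52 listed genes of the Wnt pathway, out of 19821 protein-coding genes in the RefSeq table of GRCh38.p14: 19 WNT ligands, 12 receptor genes (10 Frizzled genes with LRP5 and LRP6), CTNNB1, APC and AXIN1 of the core pathway, the 4 TCF/LEF transcription factor genes and 14 target genes. They were chosen by name and role in the pathway, with earlier results of these data known. The study mapped acetylated NEIL1 (AcNEIL1) by chromatin immunoprecipitation and sequencing in HCT116, an established line of human colorectal adenocarcinoma cells. There were 3 AcNEIL1 libraries, made with a custom rabbit antibody from exponentially growing cells, and 3 input libraries of the same untreated line, and each AcNEIL1 library had been called against the input of the same number. NEIL1 is a DNA glycosylase that removes oxidized bases in the first step of base excision repair. Nothing in the labels tells whether each replicate was a culture of its own, and the spread given below may therefore be technical.

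Wnt ligands are secreted lipid-modified proteins that bind a Frizzled receptor together with LRP5 or LRP6 at the cell surface. Binding stops the destruction complex, built on APC and the AXIN proteins, from marking beta-catenin (CTNNB1) for degradation, and beta-catenin then joins TCF/LEF factors on DNA to switch on target genes. In the gut this pathway keeps stem cells at the base of the crypt dividing, and HCT116 cells carry a mutant, stabilized beta-catenin with an intact APC gene. Neither RNA nor TCF/LEF binding was analysed here, so the values below describe where AcNEIL1 peaks lie and nothing about the activity of the genes.

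For each gene a window was taken from 10 kb before to 10 kb after its annotated ends. A peak that overlapped the window by at least 1 bp was counted as a gene-end peak if it came within 1 kb of either end, otherwise as a body peak if it overlapped the gene, and otherwise as a flank peak. The 3 AcNEIL1 libraries held 31921768, 28814429 and 35222701 tags and gave 39789, 60075 and 49609 peaks on chromosomes 1 to 22 and X. Pileup is the depth of overlapping fragments at a peak's summit and fold is that pileup over the local input level, with 1 added to each side. Both are the authors' own values, as is the −log10 q of each peak. In replicate 3 the AcNEIL1 library was larger than its input (33606858 tags) and was scaled down to it. Pileups of replicate 3 are therefore not whole counts of fragments.

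AcNEIL1 peaks were frequent around WNT ligand genes and sparse around receptor genes. Of the 52 genes, 28 (53.8%) had a window peak in all 3 replicates, where 34.0% of all protein-coding genes had one. By role these were 14 of 19 ligands, 2 of 12 receptors, 1 of 3 core genes, 3 of 4 TCF/LEF genes and 8 of 14 targets. No peak in any replicate was found in the windows of 15 genes (28.8%, against 43.3% of all protein-coding genes), and 9 had peaks in 1 or 2 replicates. A peak at a gene end in all 3 replicates was found for 12 of the 52 genes, where the share of all protein-coding genes was 9.03%. They were WNT1, WNT3, WNT3A, WNT6, WNT9B, WNT10A, WNT11, FZD9, TCF7, ASCL2, CCND1 and EPHB3. With peaks of −log10 q of 5 or more, 4 of the 52 genes kept such a peak (WNT3, WNT3A, WNT6 and WNT10A), against 3.45% of all genes. By summits in place of whole peaks there were 6 (background 6.34%), without WNT3, whose start lay under a wide peak. Body peaks in all 3 replicates were found in 20 genes (background 16.8%) and flank peaks in 17 (background 21.1%).

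**Figure D1:**
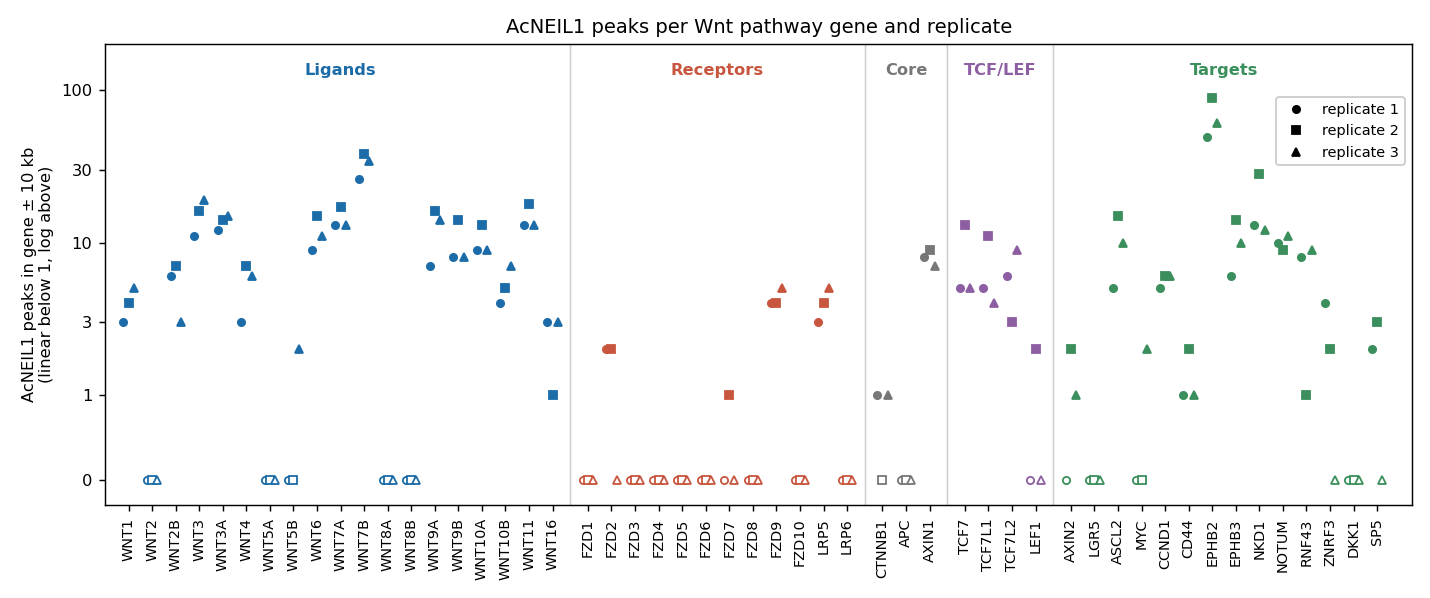
Number of AcNEIL1 peaks in the gene ± 10 kb (vertical axis, linear below 1 and log above) for each of the 52 genes, grouped and coloured by role, with 1 symbol per replicate and open symbols at 0. The ligands WNT3, WNT3A, WNT7A, WNT7B and WNT11 and the targets EPHB2 and NKD1 had more than 10 peaks in every replicate, while most receptor genes lie at 0.

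Ligand shares lay above the background in each class of gene length that held ligands. Among genes of 10 to 30 kb, 8 of the 10 listed genes (6 of 8 ligands and both targets) had a window peak in all 3 replicates, against 37.6% of all protein-coding genes of that length. From 30 to 100 kb the count was 10 of 17 (6 of 9 ligands) against 31.1%. Above 100 kb it was 5 of 10 against 29.4%. Under 10 kb it was 5 of 15 against 36.0%, and this class held 8 of the 12 receptors, of which 1 had such a peak, and 2 ligands, which both had one. Across the 52 genes, length and number of window peaks had a Spearman rho of 0.23, 0.16 and 0.17 in replicates 1 to 3. These are descriptions across genes that share the same libraries.

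Density per length gave the same order of ligands and receptors. In the joined windows of the 19 ligands there were 11.8, 16.7 and 15.2 peak summits per 100 kb in replicates 1, 2 and 3 (14.6 ± 2.50, SD, n = 3). The 14 targets had 8.78, 14.5 and 10.4 (11.2 ± 2.92), the 4 TCF/LEF genes 2.52, 4.56 and 2.83 (3.30 ± 1.10), the 3 core genes 2.95, 2.95 and 2.62 (2.84 ± 0.189), and the 12 receptors 1.15, 1.58 and 1.43 (1.38 ± 0.219). In the windows of all protein-coding genes the values were 2.03, 3.07 and 2.56 (2.55 ± 0.518). Ligands stood above receptors in each of the 3 replicates, by 13.2 ± 2.28 summits per 100 kb, and above the targets by 3.34 ± 1.29. All 52 genes together had 8.26 ± 1.72, which was 5.71 ± 1.21 above the background in 3 of 3 replicates. The receptors lay below the background in 3 of 3 replicates, with a difference of -1.17 ± 0.305. With 3 paired replicates an exact two-sided sign-flip permutation test cannot go below p = 0.25, and each of these differences gave p = 0.25.

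The target value rested on EPHB2, which held 49 of 102, 88 of 168 and 61 of 121 summits in the target windows. Without EPHB2 the other 13 targets had 5.69, 8.59 and 6.44 summits per 100 kb (6.91 ± 1.50), and the difference between ligands and targets grew from 3.34 to 7.65 ± 1.36. This took the gene with most peaks from the targets alone. Among ligands WNT7B had 26, 38 and 34 window peaks, where ligand windows held 116, 164 and 149 summits. The ligands were not recomputed without WNT7B, so how far the lead over targets rests on it was not tested. The targets without EPHB2 still lay above all protein-coding genes in 3 of 3 replicates, by 4.35 ± 1.02 (exact two-sided sign-flip permutation p = 0.25).

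**Figure D2:**
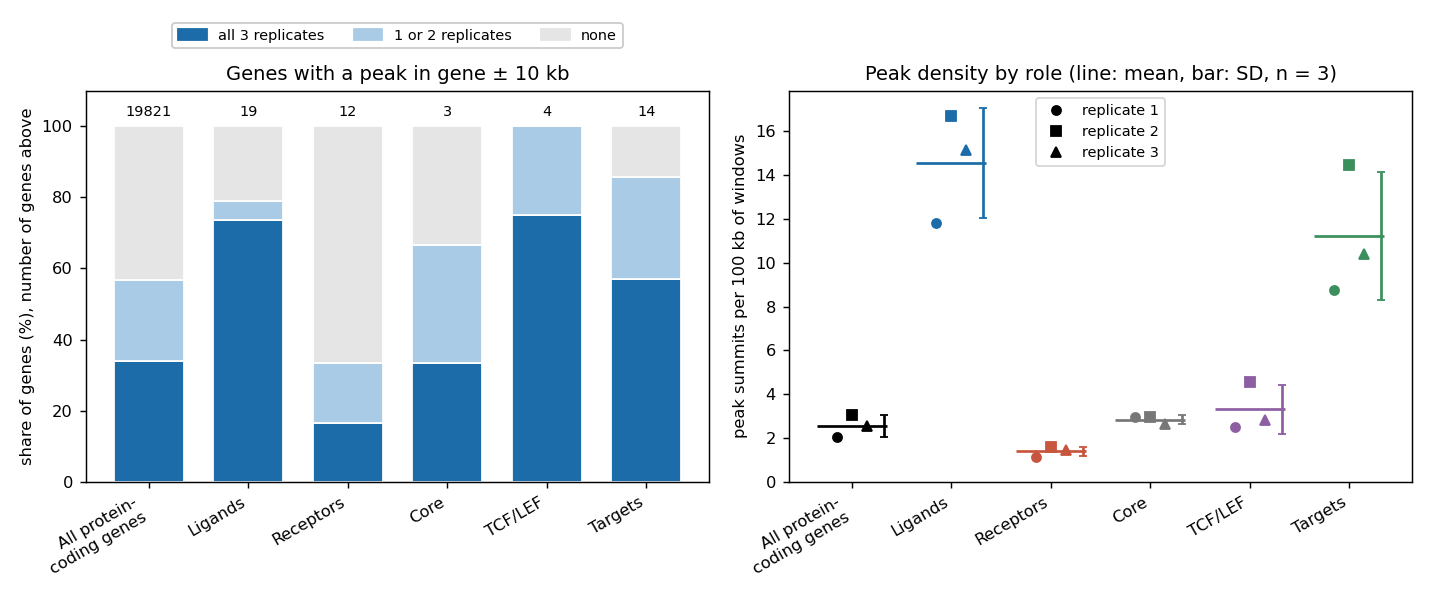
Left, share of genes (%) with a peak in the gene ± 10 kb in all 3, in 1 or 2, or in no replicate, with the number of genes above each bar. Right, peak summits per 100 kb of joined windows, with 1 symbol per replicate, the mean as a line and the SD as a bar (n = 3); the ligand replicates (11.8 to 16.7) all lie above those of the receptors (1.15 to 1.58).

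Few of these peaks touched a start site. RefSeq's promoter table (250 bases before to 50 after each start) has 44 entries for 35 of the 52 genes, and 2 of the 44 overlapped a peak in all 3 replicates, where 1.72% of 22156 protein-coding promoters did. The remaining 42 overlapped no peak in any replicate, as was so for 91.7% of all promoters. The 2 promoters belong to the neighbouring ligand genes WNT3 and WNT9B on chromosome 17. Their sequences are shown because they are the listed promoters that lay under AcNEIL1 peaks, 5′ to 3′ on the strand of the gene, with capitals marking runs of at least 3 G or 3 C. WNT3 lies at chr17:46818643-46818942 on the minus strand and WNT9B at chr17:46851333-46851632 on the plus strand (GRCh38.p14, RefSeq).
WNT3: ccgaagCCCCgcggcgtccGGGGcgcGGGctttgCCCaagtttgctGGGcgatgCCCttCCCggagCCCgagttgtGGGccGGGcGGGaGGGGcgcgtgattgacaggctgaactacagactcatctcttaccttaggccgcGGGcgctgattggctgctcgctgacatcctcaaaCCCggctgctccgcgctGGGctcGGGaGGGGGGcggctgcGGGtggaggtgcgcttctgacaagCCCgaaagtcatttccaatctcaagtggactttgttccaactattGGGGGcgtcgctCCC
WNT9B: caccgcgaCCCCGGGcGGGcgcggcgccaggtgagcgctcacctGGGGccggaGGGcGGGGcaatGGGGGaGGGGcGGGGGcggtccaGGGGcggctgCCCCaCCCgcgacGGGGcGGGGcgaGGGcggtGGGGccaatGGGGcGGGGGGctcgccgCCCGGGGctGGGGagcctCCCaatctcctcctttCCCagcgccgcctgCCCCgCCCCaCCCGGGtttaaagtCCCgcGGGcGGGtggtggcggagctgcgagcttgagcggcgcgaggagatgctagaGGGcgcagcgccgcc
The start of this WNT9B entry lies inside the gene as the gene table has it, so its peak was counted as a body peak.

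The WNT3 promoter had 21 runs of GGG or CCC and the WNT9B promoter 31, against a median of 14 over all protein-coding promoters. The median was 21 over ligand promoters, the same as in WNT3, and 24 over receptor promoters. At least 21 runs were found in 19.9% of all promoters and at least 31 in 0.88%, while 99.7% held at least 1. The GC content of the WNT9B entry was 79.7% and that of WNT3 65.7%, beside a median of 62.3% over all promoters, 72.7% over ligand promoters and 75.3% over the 6 receptor promoters. The peaks over the WNT3 promoter had folds of 5.32, 4.50 and 4.03 in replicates 1, 2 and 3 (4.62 ± 0.651, SD, n = 3), and those over WNT9B 2.48, 2.67 and 3.19 (2.78 ± 0.364). Neither sequence contained the TCF/LEF motif forms CTTTGAA or CTTTGAT on either strand. No other form was searched, so the CTTTGTT in the printed WNT3 sequence was not counted. Of all promoters 3.62% held CTTTGAA, 1.99% CTTTGAT and 5.49% at least 1 of them. Of the 44 entries, those of SP5 (2 copies of CTTTGAA and 1 of CTTTGAT) and DKK1 (1 copy of CTTTGAA) held a match to these forms, and neither promoter overlapped a peak. A match or its absence describes the letters of this window and not binding.

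WNT3 and WNT9B are separated by 14.5 kb on chromosome 17 (WNT3 at chr17:46762506-46818692, WNT9B at chr17:46833189-46886738), and their windows overlap. WNT3, a ligand of canonical signalling that Paneth cells supply in the crypt, had 11, 16 and 19 window peaks. The region over its start, chr17:46815558-46822110, carried peaks in all 3 replicates with pileups of 50, 58 and 31.5 and a highest fold of 5.32, 4.50 and 4.85 (4.89 ± 0.411, SD, n = 3). The pileups are those of the peak of highest fold in the region. In replicate 3 that peak lay 2.04 to 3.13 kb inside the gene. The replicate 3 peak over the start itself had a pileup of 35.3 and a fold of 4.03, both the lowest of the 3 replicates at the start. WNT9B, which acts in kidney and facial development, had 8, 14 and 8 window peaks, with end peaks of fold 2.71, 2.80 and 3.14 (2.88 ± 0.226) at the outer 5′ end of its gene model. These end peaks did not fall in a region shared by all 3 replicates, and the 2 shared regions of WNT9B were in its body. The gene model of LRRC37A2 in the table also covers these WNT3 and WNT9B regions, so the peaks are not those of a single annotated gene.

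The windows of 2 other pairs of neighbouring ligand genes also overlap. WNT6 and WNT10A on chromosome 2 overlap by 0.118 kb in the gene table, the 3′ end of WNT6 meeting the outer end of the WNT10A gene model. The WNT10A start site of the promoter table, 218880852, lies further inside that model. Inside WNT6, near its 3′ end, chr2:218870896-218874031 carried peaks with highest folds of 3.42, 5.75 and 5.66 (4.94 ± 1.32, SD, n = 3) and pileups of 30, 37 and 28.6. This single region gave the end peak of both genes. WNT6 had 9, 15 and 11 window peaks and WNT10A, a ligand of tooth and skin appendage development, 9, 13 and 9. The strongest window peak, common to both genes, had folds of 4.78, 5.75 and 5.66 (5.40 ± 0.535) and −log10 q of 8.48, 15.0 and 10.5; in replicate 1 it was a peak inside WNT6. WNT1 and WNT10B on chromosome 12 lie 6.59 kb apart, and 1 region, chr12:48978750-48982938 inside and at the end of WNT1, was the region of both windows found in all 3 replicates. WNT1, the founding member of the family, had 3, 4 and 5 window peaks and end folds of 3.12, 3.73 and 4.93 (3.93 ± 0.924). WNT10B had 4, 5 and 7 window peaks. Counting genes with overlapping windows as 1 locus left 16 ligand loci, of which 11 had a window peak and 5 an end peak in all 3 replicates.

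WNT7B had the most peaks of the ligands. This gene (chr22:45920366-45977162), a ligand of lung and kidney epithelium, had 26, 38 and 34 window peaks (32.7 ± 6.11, SD, n = 3), and 16.7%, 60.6% and 29.3% of the window was covered. Its strongest peaks had folds of 4.33, 6.10 and 5.41 (5.28 ± 0.891), pileups of 28, 36 and 31.5, and −log10 q of 7.71, 15.5 and 11.1. By mean number of peaks WNT7B ranked 116 of the 19821 protein-coding genes and by density 87. It held 9 regions shared by all 3 replicates, from chr22:45908843-45910786 in the flank to chr22:45971551-45973922 in the body. None of its peaks in replicates 1 and 3 came within 1 kb of a gene end, and in replicate 2 there were 2 such peaks. WNT7A (chr3:13816258-13880071), the closely related gene on chromosome 3, had 13, 17 and 13 peaks, and every one lay in the gene body. The strongest had folds of 5.01, 5.02 and 4.80 (4.94 ± 0.127), and the middle of the gene, in 3 equal lengths, held 7, 8 and 8 of the summits. The replicates were closer to each other here than in WNT7B.

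WNT3A and WNT9A sit near each other on chromosome 1, with separate windows. WNT3A (chr1:228006998-228061271), a canonical ligand much used in organoid culture, had 12, 14 and 15 window peaks. Its strongest had folds of 4.51, 5.99 and 4.81 (5.10 ± 0.785, SD, n = 3), pileups of 32, 37 and 28.6, and −log10 q of 9.24, 15.6 and 8.66. The window peaks gathered just inside the start and from the far end outward, with 7, 4 and 4 flank peaks and 1, 3 and 2 end peaks. The region just inside the start, chr1:228007927-228013122, had folds of 4.51, 4.83 and 4.75. The region from the far end into the flank, chr1:228060779-228066573, had 4.16, 5.99 and 4.81. The end peaks had folds of 3.85, 5.99 and 3.73 (4.52 ± 1.28). WNT9A, a ligand of joint formation, had 7, 16 and 14 window peaks and 4 shared regions but no gene-end peak in any replicate. Its strongest folds were 4.71, 6.24 and 4.00 (4.98 ± 1.14).

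WNT11 (chr11:76186325-76210761), a ligand known for non-canonical signalling, had 13, 18 and 13 window peaks, 5 shared regions and end folds of 3.70, 3.35 and 4.46 (3.84 ± 0.569, SD, n = 3). WNT4, which acts in kidney and ovary, had 3, 7 and 6 window peaks and a shared region in its body, chr1:22138679-22140077, with folds of 3.22, 3.73 and 3.82 (3.59 ± 0.322). WNT2B had 6, 7 and 3 peaks and a shared region at chr1:112503293-112505184 with folds of 5.14, 3.31 and 4.28 (4.24 ± 0.918). WNT16 had 3, 1 and 3 peaks, all in the flanks, and no region shared by all 3. These ligands had fewer peaks than WNT7B, with WNT11 nearest to it.

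The remaining ligands had few peaks or none. WNT2, WNT5A, WNT8A and WNT8B had no window peak in any replicate, and the nearest peak edge of any replicate lay 264.9, 1324, 38.3 and 43.4 kb from the gene. WNT5A is the main ligand of non-canonical signalling. WNT5B, its close relative, had 2 peaks in replicate 3 and none in replicates 1 and 2.

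**Figure D3:**
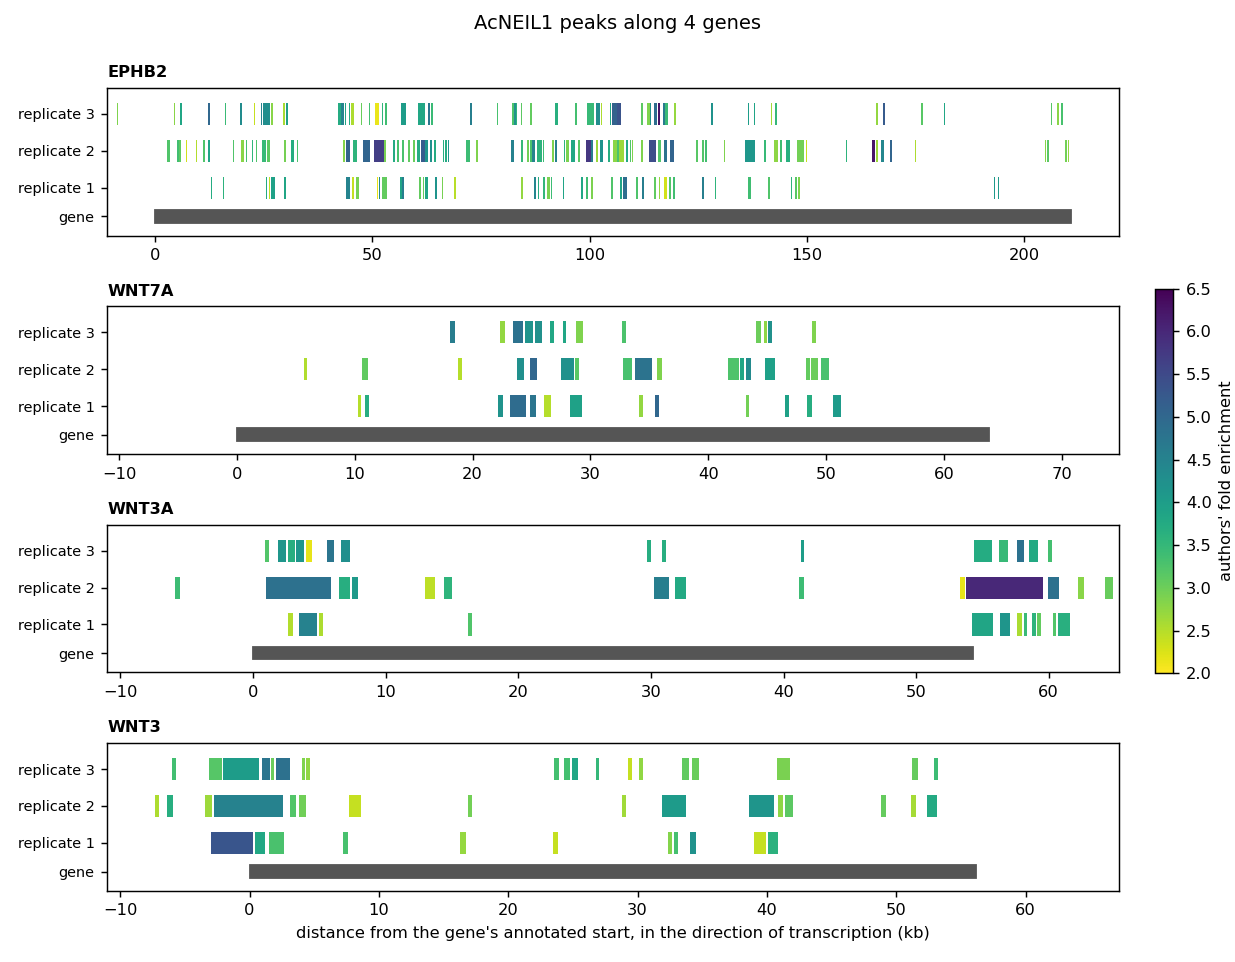
Peaks of each replicate along EPHB2, WNT7A, WNT3A and WNT3, against the distance (kb) from the annotated start in the direction of transcription, with the grey bar as the gene and colour as the authors' fold. EPHB2 carries 49, 88 and 61 peaks, of which 49, 86 and 60 are body peaks, with the fewest in the last part of the gene. WNT7A peaks lie in its body, WNT3A peaks gather just inside the start and from the far end outward, and WNT3 has a peak over its start in each replicate.

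The Frizzled genes, which encode the membrane receptors that bind WNT proteins, had few peaks. FZD1, FZD3, FZD4, FZD5, FZD6, FZD8 and FZD10 had none in any window of any replicate. The nearest peak edges of any replicate lay 616.9, 54.5, 11.5, 45.3, 18.5, 51.9 and 612.3 kb from these genes. FZD4 and FZD6 were within 20 kb of a peak in replicate 2 only, and FZD1 and FZD10 were far from any. FZD2 had 2, 2 and 0 peaks and FZD7 0, 1 and 0. FZD9 was the exception among the 10. This gene (chr7:73433778-73436120) is in the Williams syndrome region and had 4, 4 and 5 window peaks. Its end region, chr7:73434847-73436351, had folds of 2.62, 5.73 and 3.35 (3.90 ± 1.62, SD, n = 3) and pileups of 22, 34 and 25.8, and lay at the 3′ end in all 3 replicates. Replicate 2 stood above the others there.

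LRP5 and LRP6 encode the co-receptors that stand beside Frizzled. LRP5 (chr11:68298412-68449275) had 3, 4 and 5 window peaks with strongest folds of 3.93, 3.66 and 3.79 (3.79 ± 0.135, SD, n = 3), and they did not fall in a region shared by all 3 replicates. LRP6 had none, and its nearest peak was 37.7 kb away. With peaks of −log10 q of 5 or more no receptor gene kept a window peak in all 3 replicates. The surroundings of the receptors, taken as 500 kb on either side of the window, were also sparse, with a median of 0.65 summits per 100 kb over the 12 genes, against 2.37 over all protein-coding genes.

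Of the core genes, CTNNB1 and APC had few or no peaks. CTNNB1, which encodes beta-catenin and is the mutated gene of this line, had 1 flank peak in replicates 1 and 3, with folds of 3.19 and 3.44, and none in replicate 2. The nearest of them lay 8.32 kb from the gene. APC, the tumour suppressor most often lost in colorectal cancer, had none in any replicate, with the nearest peak 108.5 kb away. AXIN1 (chr16:287440-352723), the scaffold of the destruction complex, had 8, 9 and 7 window peaks. All were in the flanks except 2 body peaks in replicate 2. The strongest had folds of 4.71, 5.88 and 4.43 (5.01 ± 0.768), pileups of 22, 24 and 17.2, and −log10 q of 6.92, 10.5 and 5.13. Of its 3 shared regions, 2 overlapped the neighbouring gene ARHGDIG, 1 of them PDIA2 as well, and the third, chr16:354150-355446, lay just outside the start of AXIN1.

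The TCF/LEF genes encode the DNA-binding partners of beta-catenin. TCF7 (chr5:134108218-134148210) had 5, 13 and 5 window peaks, and a region at the outer 5′ end of its gene model, chr5:134106448-134108264, which the VDAC1 gene model also covers. The TCF7 start sites of the promoter table, 134115613 and 134123618, lie further inside the gene, and the peaks nearest to the former were 1.89, 1.63 and 4.14 kb away. The end peaks had folds of 3.13, 4.54 and 6.10 (4.59 ± 1.48, SD, n = 3), a spread that among the 12 genes with end peaks was exceeded by FZD9 alone. Every summit inside TCF7 lay in the first of 3 equal lengths of the gene. TCF7L2 (chr10:112950247-113167678), the main TCF of the intestine, had 6, 3 and 9 window peaks. Its strongest shared region, chr10:112951797-112954336 just inside the start, had pileups of 50, 54 and 31.5 and folds of 3.28, 3.86 and 3.73 (3.62 ± 0.307). A high pileup here went with a fold below the median of the shared regions, 3.91. TCF7L1 (chr2:85133392-85310387), usually a repressor, had 5, 11 and 4 peaks, all in the body, with 1 shared region of folds 3.42, 3.54 and 3.19. LEF1 had 2 peaks in replicate 2 and none in the other replicates.

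EPHB2 had the most peaks of the 52 genes. This receptor tyrosine kinase gene (chr1:22710838-22921500), a target that positions cells along the crypt, had 49, 88 and 61 window peaks (66.0 ± 20.0, SD, n = 3), which placed it 23 of 19821 protein-coding genes by mean number and 648 by density. The peaks covered 9.85%, 23.1% and 13.1% of the window. All 49 peaks in replicate 1, 86 of 88 in replicate 2 and 60 of 61 in replicate 3 were body peaks. The first, middle and last of 3 equal lengths of the gene held 20, 23 and 6 summits in replicate 1, 36, 37 and 15 in replicate 2, and 25, 26 and 9 in replicate 3, so the last part had the fewest in every replicate. The strongest peaks had folds of 4.91, 6.25 and 6.30 (5.82 ± 0.783), pileups of 23, 32 and 24.8, and −log10 q of 7.59, 14.3 and 10.2. Of all shared regions in the 52 windows, EPHB2 held 18, running from chr1:22735443-22737398 to chr1:22846654-22848939, all inside the gene. The nearest peak to its start lay 12.8, 2.65 and 4.44 kb away.

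EPHB3 (chr3:184561785-184582408), which encodes a related receptor of the crypt, had 6, 14 and 10 window peaks. The end peaks lay at its 3′ end with folds of 3.36, 3.56 and 3.07 (3.33 ± 0.245, SD, n = 3). These end peaks did not fall in a region shared by all 3 replicates. The shared regions of EPHB3 were 1 in the body and 1 in the flank. NKD1, which encodes an antagonist of Dishevelled, had 13, 28 and 12 window peaks and 2 shared body regions with folds of 3.72, 4.84 and 2.87 and of 5.57, 2.90 and 3.19. Replicate 2 was highest in the former region and replicate 1 in the latter.

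NOTUM had the highest mean fold of the 52 genes. It encodes a secreted enzyme that removes the lipid from WNT proteins (chr17:81952507-81961187) and had 10, 9 and 11 window peaks. Its strongest window peaks had folds of 5.19, 8.73 and 6.68 (6.87 ± 1.78, SD, n = 3), pileups of 35, 81 and 59.2, and −log10 q of 12.0, 45.8 and 26.4. In replicates 2 and 3 these came from chr17:81937927-81942981, a region that overlaps the neighbouring gene MYADML2 and reaches the edge of the NOTUM window. In replicate 1 the highest peak of that region, with a fold of 7.55, lay outside the window. Taken whole, the region had folds of 7.55, 8.73 and 6.68 (7.66 ± 1.03). Inside NOTUM, chr17:81955217-81959613 had folds of 4.53, 5.26 and 3.29 (4.36 ± 0.994).

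CCND1 and ASCL2 are targets on chromosome 11 in densely covered surroundings. CCND1 (chr11:69641156-69654474), the gene of cyclin D1, had 5, 6 and 6 window peaks. Its strongest, in the flank at chr11:69656845-69659380 over the gene model LOC124902704, had folds of 4.21, 6.74 and 4.35 (5.10 ± 1.42, SD, n = 3), pileups of 24, 42 and 21.0 and −log10 q of 6.43, 19.6 and 5.44. Its end peaks were weaker, with folds of 2.44, 2.94 and 3.55 (2.98 ± 0.558). ASCL2 (chr11:2268498-2270588), a transcription factor of intestinal stem cells, had 5, 15 and 10 window peaks and folds of 3.81, 4.49 and 3.29 at its ends (3.86 ± 0.605). By density it ranked 53 of 19821, with 24.4 summits per 100 kb in the surrounding 500 kb on either side as well.

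Several other well known targets had few peaks or none. MYC, which drives growth and division, had 2 flank peaks in replicate 3, the stronger with a fold of 3.84, and none in replicates 1 and 2. AXIN2, a direct target often used as a readout of the pathway, had flank peaks in replicates 2 and 3 with folds of 3.10 and 3.47 and none in replicate 1. LGR5, the marker of crypt stem cells, had none, and its nearest peak was 687.4 kb away. DKK1, a secreted inhibitor, had none within 249.9 kb. CD44, a cell adhesion gene, had 1, 2 and 1 peaks. Of the ubiquitin ligase genes that remove Frizzled from the surface, RNF43 had 8, 1 and 9 peaks and ZNRF3 4, 2 and 0. SP5, a transcription factor gene, had 2, 3 and 0.

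**Figure D4:**
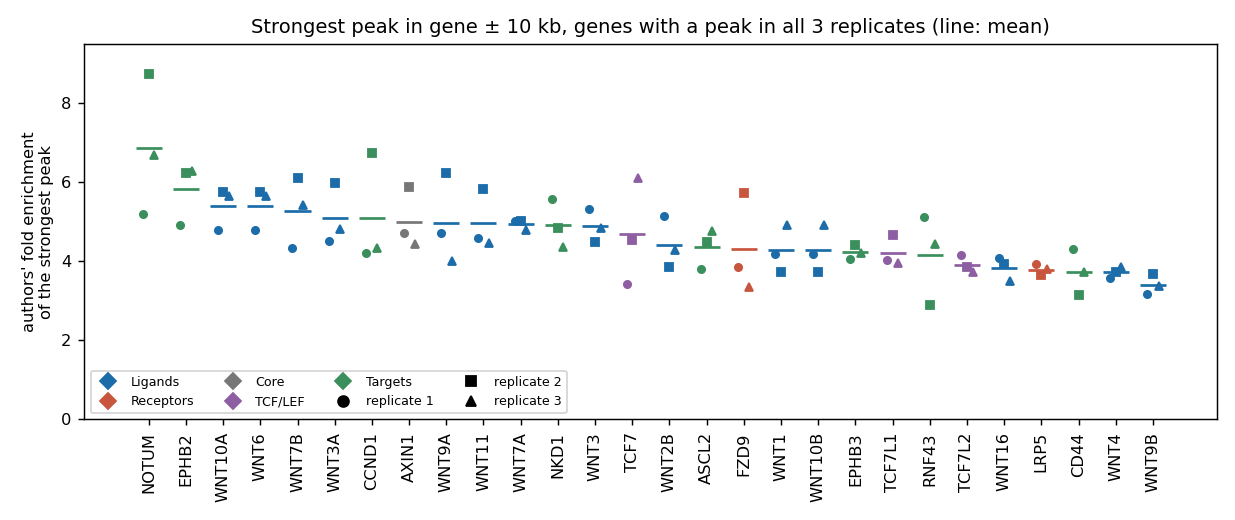
Authors' fold of the strongest peak in the gene ± 10 kb for the 28 genes with a peak in all 3 replicates, ordered by the mean (line), coloured by role, with 1 symbol per replicate. NOTUM leads with a mean of 6.87, and its replicates spread from 5.19 to 8.73.

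The peaks around these genes were of ordinary strength. In replicates 1, 2 and 3, the 253, 387 and 309 peaks in the windows had a median fold of 3.42, 3.36 and 3.44, where all peaks had 3.42, 3.40 and 3.61. Median width was 389, 497 and 392 bp against 401, 478 and 384 bp. Of the window peaks, 26.9%, 42.1% and 25.6% had a −log10 q of 5 or more, against 28.6%, 40.9% and 28.8% of all peaks. In each replicate the medians of fold and width in the windows lay close to those of all peaks.

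The replicates ranked the genes alike. The number of window peaks per gene had a Spearman rho of 0.92, 0.92 and 0.89 between replicate pairs over the 52 genes, as a description. The 15 genes without a peak in any replicate are tied in every list and add to this rho, which was not computed without them. Single genes with peaks could differ, as RNF43 did with 8, 1 and 9. Merging peaks that overlapped by at least 1 bp gave a region found in all 3 replicates in the windows of 24 of the 52 genes (46.2%), where the background was 25.3%. The count was 15 with peaks of −log10 q of 5 or more and 8 with a 50% reciprocal overlap. For these settings the share of all protein-coding genes was not computed. At 1 bp there were 78 distinct regions in the windows, of 11329 in the genome, with a median width of 1921 bp against 1709 bp. Counted gene by gene, 20 such regions lay in a flank, and 8 of these overlapped another protein-coding gene. In some cases that gene was another of the 52 (WNT1, WNT6 or WNT10A), where the region was counted as an end or body region. By role the 24 genes were 13 ligands, 1 receptor, 1 core gene, 3 TCF/LEF genes and 6 targets. WNT16, LRP5, CD44 and RNF43 had window peaks in every replicate without a common region.

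The windows were also compared with their surroundings. In all 3 replicates 20 of the 52 windows (38.5%) were denser in summits than the 500 kb on either side, against 19.5% of all protein-coding genes. Of these 13 were ligands, 1 a receptor (FZD9), 1 a TCF/LEF gene (TCF7) and 5 targets (CD44, EPHB2, EPHB3, NKD1 and NOTUM). CD44 was counted on 1, 2 and 1 window peaks, with a mean of 1.18 summits per 100 kb against 0.50 around it. Ligand windows had a median of 16.5 summits per 100 kb and their surroundings 3.87. Target windows had 7.19 and their surroundings 3.48. The 15 windows without peaks had a median of 0.40 in their surroundings, and WNT8B, with 7.07, was the highest of them. Window and surrounding density had a Spearman rho of 0.74 over the 52 genes, as a description. The share of a window's density that belongs to its wider region was not tested.

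**Figure D5:**
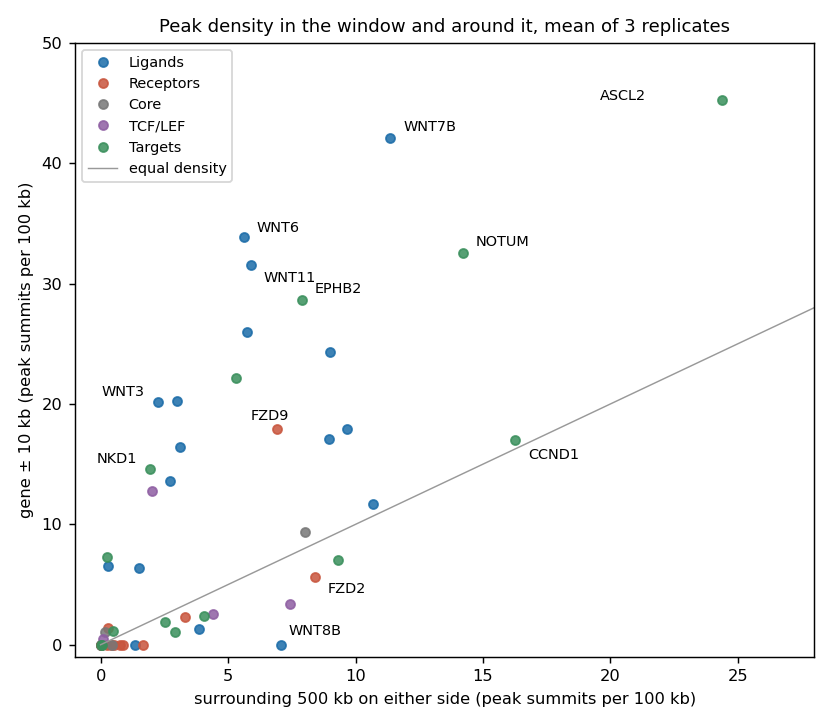
Mean summits per 100 kb (3 replicates) in the gene ± 10 kb, vertical axis, against the 500 kb on either side, horizontal axis, with 1 point per gene coloured by role and a line of equal density. ASCL2 and CCND1 lie in the densest surroundings (24.4 and 16.3), while WNT3 and NKD1 stand above sparse ones (2.23 and 1.93).

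A further 83 genes of the pathway, listed by role, gave lower counts. Of these 37 (44.6%) had a window peak in all 3 replicates (background 34.0%) and 4 (4.82%) an end peak (background 9.03%). By role, window peaks in all 3 replicates were found for 5 of 17 secreted modulators, 0 of 2 secretion genes, 7 of 12 membrane proteins, 14 of 25 cytoplasmic components, 6 of 13 nuclear factors and 5 of 14 further targets. The 4 with an end peak in all 3 replicates were RSPO4, an R-spondin that amplifies the signal (end folds 4.44, 4.40 and 6.06), BCL9L, a beta-catenin cofactor (4.06, 5.21 and 2.81), CSNK1D, a casein kinase (2.60, 4.36 and 3.08), and KREMEN2, a receptor of the DKK inhibitors (2.79, 3.62 and 2.27). Their means were 4.97 ± 0.951, 4.03 ± 1.20, 3.35 ± 0.908 and 2.89 ± 0.678 (SD, n = 3). The summit density of the 83 genes was 2.63, 4.38 and 3.65 per 100 kb (3.55 ± 0.883), below that of the 52 in each replicate.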

How the data were processed

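Chromatin of HCT116 cells was immunoprecipitated with an antibody to AcNEIL1 in 3 libraries, each with an input library. The authors deposited 1 MACS peak list per AcNEIL1 library, called on its own against the input of the same number and not on pooled samples. Per the file headers, MACS 2.1.1.20160309 was run on hg38 with single-end tags, a q-value cutoff of 0.05, at most 2 duplicate tags per position and the larger library scaled to the smaller. The input held 32877739, 37772127 and 33606858 tags. Fragment lengths were 268, 294 and 249 bp, per the file headers. The deposited pileup is a coverage signal in tags, −log10 p and −log10 q are significance values, and fold enrichment is the ratio of that signal to local background, each with 1 added. The unequal numbers of peaks affect any count of peaks, so a list cut to equal length was tried. No peak was listed below a pileup of 10, so weaker binding is not seen. The submitters' processing notes name Trim Galore, cutadapt, Bowtie2, SAMtools, bedtools and MACS2; for the alignment settings, nothing is stated in the sources used.

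The peaks of chromosomes 1 to 22 and X were joined to the RefSeq gene table of GRCh38.p14, after 679 rows on scaffolds or alternate loci were left out (58419 genes kept). Start sites and strands came from RefSeq promoter entries. A gene without an entry has no strand here, and its ends are called ends only. Densities count summits in joined windows. Role differences were compared over the 3 replicates with an exact two-sided sign-flip permutation test. Named genes are those with an end peak or a shared region in all 3 replicates, those with no window peak, and MYC, AXIN2, LGR5, CTNNB1 and APC. The 8 genes of highest mean fold have pileup, fold and −log10 q per replicate, and other listed genes are named for completeness. Of the further pathway genes, those with an end peak in all 3 are named. Those with the most peaks are also given, chosen after their values were seen. The 52 genes and the other lists were chosen with earlier results of these data known. Peak threshold, equal list length, flank and end window, summit in place of peak, overlap, replicates left out and EPHB2 left out were tried as alternatives. Peak assignment was tested on simulated data. Python 3.11.15, pandas 2.3.3, numpy 2.4.6, scipy 1.17.1 and matplotlib 3.10.9 were used.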

Additional observations from a re-analysis of the deposited data

How the results depend on the processing

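The 3 density differences recomputed (ligands less targets, ligands less receptors and the 52 genes less the background) kept their direction under each alternative tried; the receptors and the targets without EPHB2 were not set against the background again. With peaks of −log10 q of 5 or more these 3 were 1.31, 4.72 and 1.81, and with no flank ligands less targets was 5.77. The number of genes with an end peak in all 3 replicates fell from 12 to 4 with peaks of −log10 q of 5 or more, to 6 with the summit in place of the whole peak and to 7 with an end window of 500 bp (6.02% of all protein-coding genes). With the stricter −log10 q, 19 genes had a window peak in all 3 replicates (36.5%, against 17.2% of all genes), receptors with a window peak fell from 2 to 0, genes with a shared region from 24 to 15 and the density of the 52 genes from 8.26 to 2.68 summits per 100 kb. With lists cut to equal length that density was 6.52. With a 50% reciprocal overlap, 8 genes kept a shared region. For shared regions the share of all protein-coding genes was not computed under this setting or the stricter −log10 q. Leaving out 1 replicate gave 29 to 31 genes with a window peak, 12 to 13 with an end peak and 26 to 27 with a shared region, and 14 ligands in every case, 2 to 3 receptors and 8 to 10 targets with a window peak. Window and end counts can only stay or rise when fewer replicates must hold a peak, so these counts are no check of the main ones. The share of all protein-coding genes was not computed with a replicate left out. Densities were then 7.36 to 9.08 for the 52 genes, and the differences were 2.64 to 3.89 for ligands less targets, 12.2 to 14.4 for ligands less receptors and 5.07 to 6.27 for the 52 genes less the background. Leaving out EPHB2, an alternative chosen after seeing the data, gave 6.94 for the density and 4.39 above the background. The causes of these changes were not tested, beyond the smaller number of peaks in a stricter list. Between AcNEIL1 and input libraries, no paired analysis was possible because the inputs enter the lists only as the control of each call and have no values of their own here; differences between roles were taken within each AcNEIL1 library. The lists hold peaks above a threshold, so a gene without a peak may carry AcNEIL1 below it.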

Other observations

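Single genes of the further 83 are given here, chosen after their values were seen. CELSR1, a cadherin of planar cell polarity, had 19, 31 and 26 window peaks in replicates 1, 2 and 3. Its window was less dense than the surrounding 500 kb on either side, with a mean of 12.7 against 15.3 summits per 100 kb. VANGL2, the partner of CELSR1 at the membrane, had 11, 11 and 10 window peaks, with 22.2 against 3.70 summits per 100 kb. CELSR2 had 1, 14 and 10 and CELSR3 1, 12 and 2. VANGL1 had 0, 2 and 2 and DAAM1 0, 0 and 1, and PRICKLE1 and PRICKLE2 had no window peak in any replicate. CAMK2A, a kinase of calcium signalling, had 12, 22 and 19, SDC1, a heparan sulfate proteoglycan, 15, 10 and 18, and FGF18, a growth factor target, 7, 16 and 14.

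Several secreted inhibitors had few peaks or none. DKK4, SFRP4, WIF1, SOSTDC1 and CER1 had no window peak in any replicate. DKK3 had 3, 5 and 4, SFRP5 1, 6 and 4, and SOST 1, 4 and 2. Among the R-spondins, RSPO4 had 11, 12 and 14 and RSPO1 1, 5 and 7, while RSPO2 had none. BCL9L, which had the most window peaks of the 13 nuclear factors, had 15, 15 and 14 window peaks and 8 regions shared by all 3 replicates.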
